A study of Artemia parthenogenetic lineage with 6 samples.

Results

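Of the 15 genes listed by the study as candidate G-protein-coupled receptors (GPCRs), 5 are described here, and they were picked because accessible chromatin around them was lost between diapause and 5 h after embryonic diapause termination (EDT). The 5 genes are evm.TU.ctg441.12, annotated as a RYamide receptor, evm.TU.ctg445.18_evm.TU.ctg445.12, evm.TU.ctg195.9, evm.TU.ctg42.32 and evm.TU.ctg308.1. Their members are the 52 peaks, of 112790 in all, that the deposited table assigns to one of these genes, and 51 of them were among the 112211 peaks that passed the filter on low counts. The 1 member that did not pass, at -4463 bp from the transcription start site (TSS) of evm.TU.ctg195.9, held 1.18 to 3.60 CPM in the ArR_5h libraries and 1.11 to 2.91 CPM in the ArD_0h libraries. ATAC-seq, which tags open chromatin by cutting it with a transposase, was applied to whole cysts of wild-type parthenogenetic *Artemia* (*A. parthenogenetica*) from 1 batch. ArR_5h stands for cysts 5 h after EDT (3 libraries), and ArD_0h for cysts in diapause (3 libraries). The study broke diapause by dehydration and refrigeration. The ArR_5h cysts were rehydrated in ice-cold artificial seawater of 30‰ and reactivated in seawater of 30‰ under continuous illumination. Effects of these treatments cannot be told apart from that of the stage. The labels give a salinity of 30‰ for the libraries of both groups. The study calls the replicates biological. The temperature of reactivation is 28 °C in the protocol of every library but 28, 29 and 30 °C in the treatment labels of ArR_5h replicates 1, 2 and 3, so that it is not settled for replicates 2 and 3. Reads were mapped to the assembly of another species, *A. franciscana*, and a position is given on that assembly.

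GPCRs are membrane proteins that cross the cell membrane with a bundle of helices, bind a ligand outside the cell and pass the signal to G proteins inside it. Neuropeptides, hormones, amines and light all act through members of this family, and in insects the receptor of diapause hormone belongs to it. The RYamide receptor of *Drosophila melanogaster* binds the neuropeptides RYamide-1 and RYamide-2. The other 4 genes carry the annotation of GPCR activity without a receptor name, so that no ligand can be given for them, and an annotation is no assay of the protein. The study also predicted the membrane helices of the encoded proteins. By that prediction the RYamide receptor had the structure of a GPCR, and the other 4 did not meet the study's criterion. The deposited table holds gene IDs without names, and the label of the cysts was therefore not checked against marker genes. The count of a peak sums over all nuclei of a sample, in which a site open in fewer nuclei and a site less open in every nucleus cannot be told apart.

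The libraries held 5239170 to 9366963 counts in peaks, made up of 5497870 to 9366963 in ArR_5h and 5239170 to 6557546 in ArD_0h. As a share of the authors' library totals, these counts were 14.83%, 14.63% and 13.73% in ArR_5h replicates 1, 2 and 3. In those of ArD_0h they were 10.64%, 12.96% and 12.68%, so that the groups did not overlap. Whether this difference adds to the lower calls at weak peaks was not tested. ArD_0h replicate 1 stood apart. Over log2 CPM of all tested peaks, which are not independent replicates, its Pearson correlation with the other ArD_0h libraries was 0.716 and 0.703, against 0.873 between these 2 and 0.893 to 0.924 among the ArR_5h libraries. With the ArR_5h libraries, ArD_0h replicate 1 correlated at 0.342 to 0.469. ArD_0h replicates 2 and 3 correlated with them at 0.647 to 0.723, a range that holds both of their correlations with replicate 1. Levels are given in CPM, the count of a peak after all libraries were brought to one size (with TMM factors). A peak was called lower or higher in ArR_5h when the quasi-likelihood test of edgeR gave a Benjamini-Hochberg adjusted p of at most 0.05 over all tested peaks and the log2 difference, ArR_5h minus ArD_0h, was above 1 in size. Since the genes were picked on this very contrast, the calls and differences of their peaks are a description and no test of the genes.

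Of the 51 tested members, 21 were called lower in ArR_5h and 1 was called higher, where 15.2% and 14.5% of all tested peaks were called lower and higher. The log2 difference was below 0 at 41 of the 51, against 52.1% of all tested peaks, and its median was -1.04, against -0.07 over all tested peaks. The 21 lower peaks had log2 differences from -2.30 to -1.01, with a median of -1.34. All 3 ArR_5h libraries lay below all 3 ArD_0h libraries at 22 of the 51 and above them at 5, where the groups did not overlap in this way at 25.7% and 26.4% of all tested peaks. At 4 of the 21 lower peaks the groups overlapped. The 21 lower peaks lay 6106 to 199212 bp from the TSS of their gene, and 15 of them were inside the gene.

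**Figure D1:**
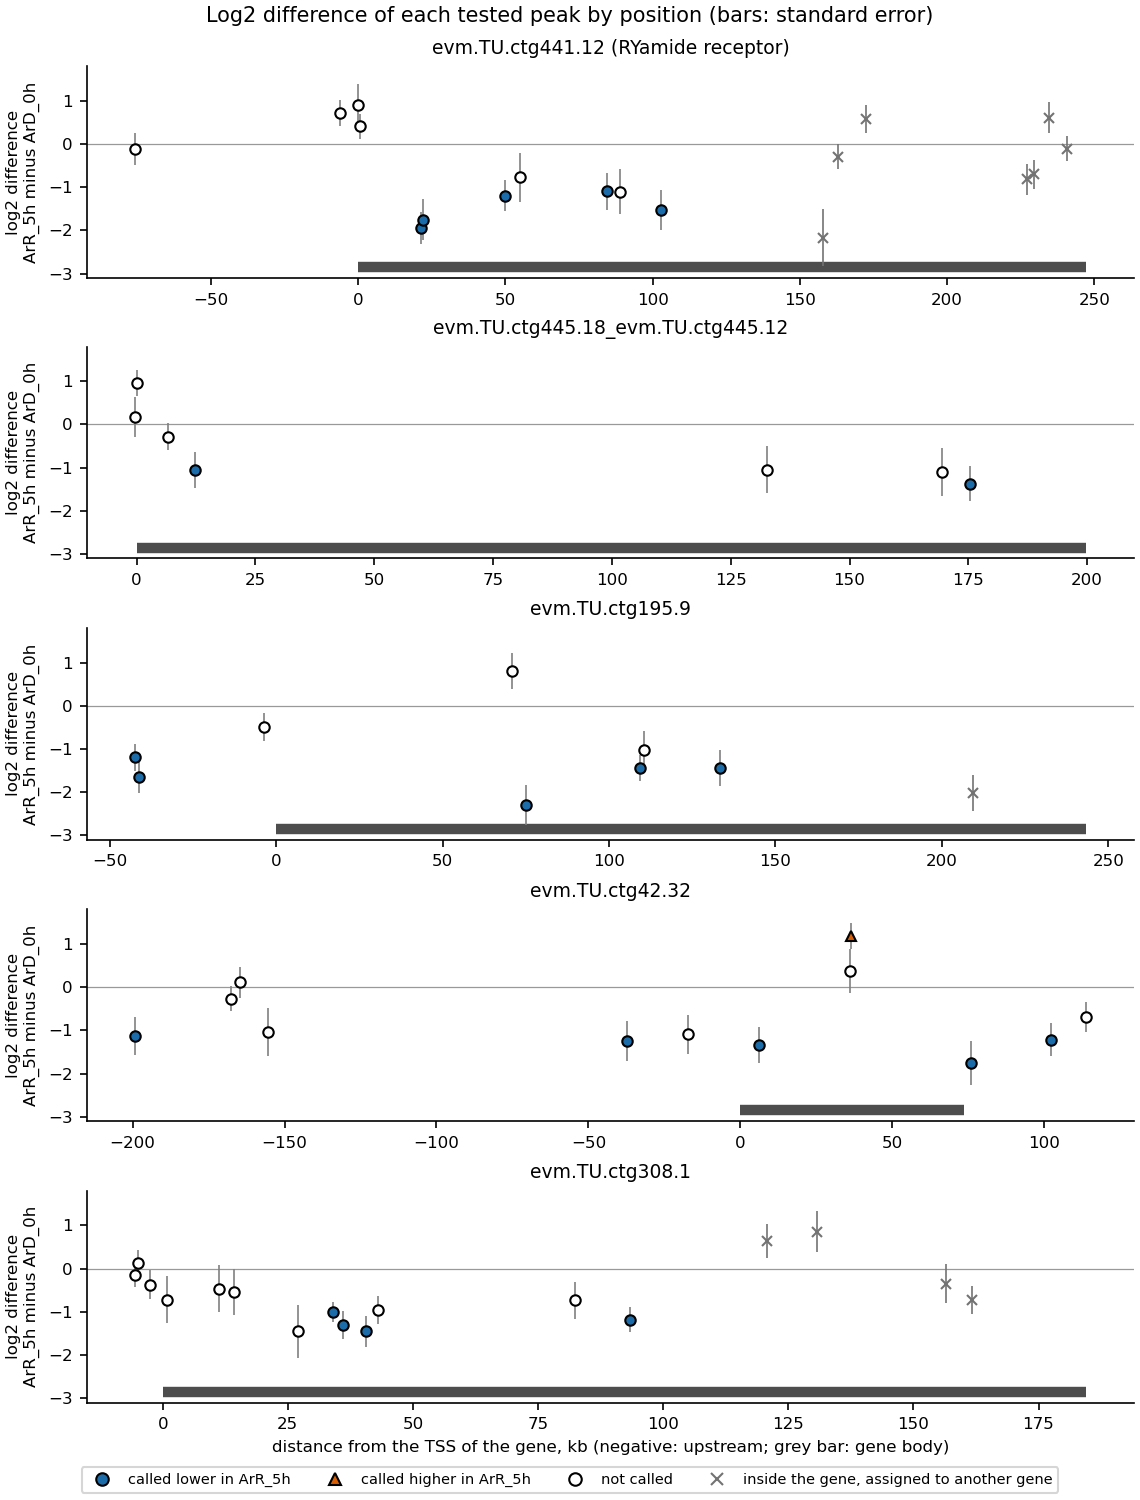
Log2 difference between ArR_5h and ArD_0h (with its standard error) of each tested peak of the 5 genes against the distance from the TSS of the gene in kb, with the gene body as a grey bar and, as crosses, peaks inside the gene that the table assigns to another gene. The lower peaks (filled circles) lie 6106 to 199212 bp from a TSS, and both peaks over a TSS lie above 0 and were not called.

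By position, 15 of the 29 tested members inside the genes and more than 3000 bp from the TSS were lower and 1 was higher, with a median log2 difference of -1.10. In the whole table, 11.0% of such peaks were lower and 17.0% higher. Of 13 tested members upstream by more than 3000 bp, 4 were lower, where 18.8% of all such peaks were. Of the 3 beyond the end of a gene, 2 were lower, where 19.3% of all such peaks were. The members within 3000 bp of a TSS were only 6, too few to read their calls against the shares of all such peaks, and none was called. Of these, 4 lay beside a TSS, where 7.04% of all such peaks were lower and 12.4% higher. The other two lay over a TSS, where 0.982% of all such peaks were lower and 27.5% higher, and had positive log2 differences, 0.90 at evm.TU.ctg441.12 and 0.97 at evm.TU.ctg445.18_evm.TU.ctg445.12. The median log2 difference of all tested peaks over a TSS was positive as well, 0.71.

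The genes themselves were long. Length was not part of the rule that picked them, but over all tested peaks lower calls were rarer near a TSS than far from it. Length can therefore not be read as a trait apart from the choice. The genes measured 247228 bp (evm.TU.ctg441.12), 243340 bp (evm.TU.ctg195.9), 199790 bp (evm.TU.ctg445.18_evm.TU.ctg445.12), 184527 bp (evm.TU.ctg308.1) and 73669 bp (evm.TU.ctg42.32), against a median of 39982 bp over 12010 genes. The first 4 of these were longer than 97.4% to 99.3% of all genes, and evm.TU.ctg42.32 was longer than 72.0%. Their peaks were of about the usual width and of lower level than most. The median width was 316 bp, against 328 bp over all peaks, 11 of the 52 had the minimum width of 200 bp, and the median of the mean level over the 6 libraries was 3.87 CPM, against 5.48 CPM over all tested peaks. Over the 21 lower peaks the median of the mean level was 2.2 CPM in ArR_5h and 5.87 CPM in ArD_0h. With the trend of each library on level taken out, the median log2 difference of the members was -0.60, with 39 of 51 below 0 and 18 called lower.

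Summed over the peaks of a gene, all ArR_5h libraries lay below all ArD_0h libraries at 4 of the 5 genes and not at evm.TU.ctg445.18_evm.TU.ctg445.12. The genes were picked for loss on this contrast, and the share of all genes with sums apart in this way was not computed. The count is therefore a description only. The peaks of the RYamide receptor gene summed to 44.3, 49.9 and 44 CPM in ArR_5h replicates 1, 2 and 3, against 60.7, 62.1 and 61.9 CPM in those of ArD_0h. Those of evm.TU.ctg195.9 summed to 27.9, 34.5 and 31.7 CPM in ArR_5h, against 70.0, 69.7 and 59.9 CPM in ArD_0h. The groups did not overlap at either gene, and the ArR_5h mean was 74.9% of the ArD_0h mean at the first and 47.1% at the second. Those of evm.TU.ctg42.32 summed to 40.6, 46.9 and 48.4 CPM in ArR_5h, against 70.5, 59.8 and 58.0 CPM in ArD_0h. Those of evm.TU.ctg308.1 summed to 151, 146 and 185 CPM in ArR_5h, against 306, 357 and 293 CPM in ArD_0h, the highest sums of the 5 genes. The ArR_5h means of these 2 were 72.2% and 50.5% of the ArD_0h means, again without overlap. The sum of evm.TU.ctg308.1 leaned on a single peak, at 33937 bp. That peak held a mean of 84.7 CPM of a mean sum of 161 CPM in ArR_5h, and 170 of 319 CPM in ArD_0h. At evm.TU.ctg445.18_evm.TU.ctg445.12 the sums were 23.7, 28.3 and 25.9 CPM in ArR_5h, against 41.9, 30.6 and 23.0 CPM in ArD_0h. Only ArD_0h replicates 1 and 2 lay above the ArR_5h libraries there, and the ArR_5h mean was 81.7% of the ArD_0h mean, but 97.0% without ArD_0h replicate 1. Without that library the share was 74.4%, 48.4%, 76.9% and 49.5% at evm.TU.ctg441.12, evm.TU.ctg195.9, evm.TU.ctg42.32 and evm.TU.ctg308.1.

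**Figure D2:**
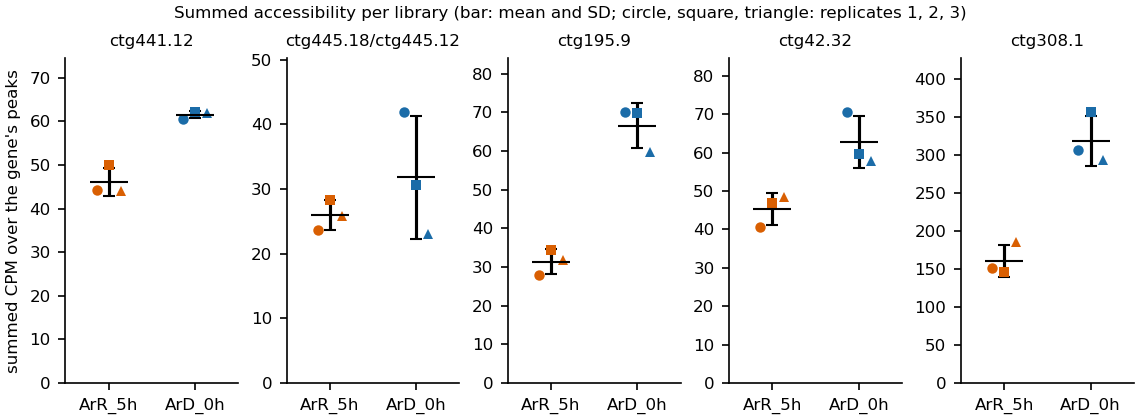
Summed CPM over all peaks of each of the 5 genes in each library, with ArR_5h in orange and ArD_0h in blue, and the mean and SD of 3 libraries as bars. The ArR_5h libraries lie below all ArD_0h libraries except at evm.TU.ctg445.18_evm.TU.ctg445.12, where ArD_0h replicate 3 (23.0 CPM) is the lowest of all.

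The gene of the RYamide receptor lies on the minus strand of ctg441 from 851420 to 1098647. Of its 11 tested peaks 5 were lower, all of them more than 21 kb inside the gene, and the other 6 were not called. The outermost, at -75786 bp, held 3.0 to 4.28 CPM in ArR_5h and 3.20 to 4.75 CPM in ArD_0h (-0.12). The peak over the TSS, from 1098475 to 1098674, held 2.93, 4.84 and 3.19 CPM in ArR_5h replicates 1, 2 and 3, against 2.5, 0.918 and 2.47 CPM in those of ArD_0h. The strongest peak of the gene, 724 bp inside it (1096933 to 1097923), held 15.1, 15.8 and 10.5 CPM in ArR_5h, against 12.5, 10.9 and 7.79 CPM in ArD_0h. All ArR_5h libraries were above all ArD_0h libraries at the first, and the groups overlapped at the second, whose log2 difference was 0.41 (standard error 0.285). At the TSS the log2 difference was 0.90 (standard error 0.494), and the peak was not called, but was called higher (1.33) with the trend on level taken out. The peak at -6296 bp, upstream, likewise had all ArR_5h libraries (7.5 to 10.8 CPM) above all ArD_0h libraries (4.17 to 7.41 CPM), with a log2 difference of 0.71, and was not called.

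From 21 kb onwards inside the RYamide receptor gene, all 7 peaks assigned to it had negative log2 differences, and 5 of them were called lower. The deepest losses were at a pair of peaks 267 bp apart. The one 21303 bp from the TSS (1076985 to 1077344) held 1.24, 2.36 and 2.06 CPM in ArR_5h, against 6.12, 5.81 and 9.88 CPM in ArD_0h, a log2 difference of -1.94 (standard error 0.376). The one 21930 bp from the TSS (1076372 to 1076717) held 2.14, 1.77 and 1.69 CPM in ArR_5h, against 1.67, 8.10 and 9.69 CPM in ArD_0h, a log2 difference of -1.75 (standard error 0.471). Both were low in every ArR_5h library, and at the second ArD_0h replicate 1 was as low as these. The lower peak at 49911 bp (1048361 to 1048736) held 2.48, 2.60 and 7.31 CPM in ArR_5h, against 9.04, 11.2 and 6.65 CPM in ArD_0h, so that replicate 3 of ArR_5h lay above that of ArD_0h. The lower peak at 84540 bp (1013730 to 1014107) held 1.8, 2.60 and 2.06 CPM in ArR_5h, against 3.62, 6.57 and 3.61 CPM in ArD_0h. The lower peak at 102868 bp (995359 to 995779) held 1.69, 1.06 and 3.19 CPM in ArR_5h, against 8.62, 2.91 and 4.75 CPM in ArD_0h. Their log2 differences were -1.20, -1.09 and -1.53, and of these 3 only the peak at 84540 bp had groups that did not overlap. At the remaining 2 peaks the log2 differences were -0.77 (54888 bp) and -1.10 (88856 bp), neither called. The second of these was called lower (-1.76) without ArR_5h replicate 2, the highest library of its group there with 2.83 CPM.

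Several of these calls were lost when a single library was left out. Such a fit also rests on fewer libraries, and the loss of power was not told apart from an effect of the library left out. Without ArD_0h replicate 2 the log2 differences at 49911 and 84540 bp were -0.95 and -0.69, and without ArR_5h replicate 1 they were -0.91 and -0.96, none of these called. Neither was called without ArR_5h replicate 2 (-0.94 and -1.26), nor was the peak at 84540 bp without ArR_5h replicate 3 (-1.06). The call at 84540 bp was also lost with DESeq2 (-1.07), the authors' library totals (-0.94), the trend on level taken out (-0.83) and the replicate block (-1.07). The peak at 102868 bp was not called without ArD_0h replicate 1 (-1.0), ArR_5h replicate 1 (-1.44) or ArR_5h replicate 2 (-1.21), and that at 21930 bp not without ArD_0h replicate 2 (-1.52) or 3 (-1.35). The peak at 21303 bp was the only one of the gene called lower without each library in turn, and without ArR_5h replicate 1 or ArD_0h replicate 2 only 2 of its 11 peaks were called lower.

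Further peaks inside the RYamide receptor gene belong to another gene in the table. The table assigns each peak to a nearest gene, and 7 tested peaks that lie inside the RYamide receptor gene, 157852 to 240572 bp from its TSS, are assigned to evm.TU.ctg441.11, the next gene on the contig. Their log2 differences ranged from -2.17 to 0.61 with a median of -0.29, and 1 was lower. That one, from 940595 to 940795, held 0.788, 0.826 and 0.562 CPM in ArR_5h, against 6.40, 1.53 and 2.09 CPM in ArD_0h. With these peaks included, 6 of 16 tested peaks overlapping the gene were lower and none higher. These peaks were added after the values were seen, and no test was made between them and those assigned to the receptor gene.

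The gene evm.TU.ctg445.18_evm.TU.ctg445.12, whose ID joins 2 gene IDs, lies on the plus strand of ctg445 from 524584 to 724373. It too had a TSS peak with higher levels in ArR_5h, the direction of the median over all such peaks, and internal peaks with lower ones. The peak over its TSS, from 524389 to 524948, held 9.11, 10.3 and 6.19 CPM in ArR_5h, against 4.87, 4.28 and 3.99 CPM in ArD_0h. The groups did not overlap. Its log2 difference of 0.97 (standard error 0.30) was just under the limit of 1, and it was called higher with DESeq2 (1.0), with the authors' library totals (1.13) and without ArD_0h replicate 1 (1.05), ArD_0h replicate 2 (1.01) or ArR_5h replicate 3 (1.14). The lower peak 175433 bp from the TSS (700017 to 700216) held 1.35, 2.36 and 2.44 CPM in ArR_5h, against 6.68, 4.59 and 4.37 CPM in ArD_0h, a log2 difference of -1.37 (standard error 0.406). The lower peak at 12191 bp (536775 to 537083) held 2.36, 2.36 and 1.87 CPM in ArR_5h, against 5.70, 5.05 and 3.04 CPM in ArD_0h, a log2 difference of -1.06 (standard error 0.412). The groups did not overlap at either, and ArD_0h replicate 1 was the highest library at both. Neither the peak at 132583 bp (-1.05) nor that at 169409 bp (-1.11) was called. Their ArD_0h libraries held 6.26, 2.45 and 2.28 CPM at the first and 5.29, 2.29 and 1.9 CPM at the second, so that replicate 1 again stood above the other 2. Without ArR_5h replicate 1 no peak of this gene was called lower (-1.12 at 175433 bp and -1.10 at 12191 bp), and the peak at 12191 bp was called in only 1 of the fits without a library, that without ArD_0h replicate 3, with -0.88, -0.93, -1.10 and -0.97 without ArD_0h replicate 1, ArD_0h replicate 2, ArR_5h replicate 2 and ArR_5h replicate 3. It was not called either with DESeq2 (-1.02), the authors' library totals (-0.89), the trend on level taken out (-0.78) or the replicate block (-1.05).

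The gene evm.TU.ctg195.9, on the plus strand of ctg195 from 509412 to 752751, lost most among the 5 genes relative to its level in diapause, with 5 of 8 tested peaks lower. The deepest loss of all members was 75082 bp inside it, at the peak from 584494 to 584742, with 0.563, 2.01 and 0.937 CPM in ArR_5h, against 6.68, 5.81 and 5.13 CPM in ArD_0h. These levels stood for 5, 17 and 5 reads in ArR_5h and 48, 38 and 27 reads in ArD_0h, and the log2 difference was -2.30 (standard error 0.458). The strongest peak of the gene, 109289 bp from the TSS (618701 to 619283), held 6.98, 6.96 and 4.87 CPM in ArR_5h, against 10.7, 23.9 and 17.1 CPM in ArD_0h, a log2 difference of -1.44 (standard error 0.310). ArD_0h replicate 1 was the lowest of its group there. A weaker peak next to it, at 110357 bp, had 2.14 to 2.72 CPM in ArR_5h and 2.09, 7.19 and 5.32 CPM in ArD_0h (-1.02), and was called lower (-1.40) only without ArD_0h replicate 1.

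Upstream of evm.TU.ctg195.9, a pair of peaks 773 bp apart was lower as well. The one at -41078 bp (467750 to 468334) held 1.35, 2.95 and 5.44 CPM in ArR_5h, against 13.5, 8.41 and 6.84 CPM in ArD_0h, a log2 difference of -1.65 (standard error 0.380). The one at -42436 bp (466376 to 466976) held 3.26, 8.62 and 5.62 CPM in ArR_5h, against 15.7, 9.63 and 14.8 CPM in ArD_0h, a log2 difference of -1.20 (standard error 0.322). ArR_5h replicate 1 was the lowest library at both, and the groups did not overlap. Both lie inside the neighbouring gene evm.TU.ctg195.8_evm.TU.ctg195.7, which spans 374492 to 547781 and thus overlaps the start of evm.TU.ctg195.9, so that their assignment to evm.TU.ctg195.9 is by distance to the TSS only. The remaining lower peak, 133274 bp inside the gene (642686 to 643018), held 2.03, 2.12 and 2.44 CPM in ArR_5h, against 9.60, 4.74 and 3.23 CPM in ArD_0h, a log2 difference of -1.44. The peak nearest the TSS among those tested, at -3581 bp, held 3.83, 4.37 and 3.94 CPM in ArR_5h, against 7.23, 5.20 and 4.56 CPM in ArD_0h, a log2 difference of -0.49, and was not called. The peak at 70811 bp ran the other way, with 3.54 to 4.87 CPM in ArR_5h and 1.71 to 3.34 CPM in ArD_0h (0.80, not called, but called higher without ArD_0h replicate 1, 1.15, and with the trend on level taken out, 1.09). Without ArR_5h replicate 1 the log2 difference was -0.89 at -42436 bp and -1.38 at 133274 bp, and without ArD_0h replicate 1 it was -0.88 at 133274 bp, none of these called. The other 3 lower peaks of this gene were called in every alternative fit. A peak inside the gene that the table assigns to evm.TU.ctg195.12, from 718766 to 719204, was lower too, with 3.94, 4.72 and 6.75 CPM in ArR_5h, against 8.21, 41 and 12 CPM in ArD_0h.

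The gene evm.TU.ctg42.32, on the minus strand of ctg42 from 2000937 to 2074605, differed from the other 4 in that 9 of its 12 peaks lay outside the gene. Only this gene had a called higher peak among the members. That peak, 36347 bp inside the gene (2037810 to 2038258), held 8.66, 7.20 and 9.0 CPM in ArR_5h, against 3.34, 3.82 and 3.80 CPM in ArD_0h, a log2 difference of 1.18 (standard error 0.30), and was called higher in every alternative fit. Its neighbour 25 bp away, at 36109 bp, was not called (0.38). The lower peak nearest a TSS among all members, 6106 bp inside this gene (2068213 to 2068499), held 2.03, 2.24 and 1.5 CPM in ArR_5h, against 5.98, 3.98 and 4.94 CPM in ArD_0h, a log2 difference of -1.34 (standard error 0.409). The deepest loss, 75710 bp from the TSS and thus just beyond the end of the gene (1998696 to 1998895), held 0.788, 1.89 and 1.12 CPM in ArR_5h, against 5.01, 4.89 and 3.04 CPM in ArD_0h, a log2 difference of -1.75 (standard error 0.506). At these 3 peaks the groups did not overlap.

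Further out, 3 more peaks of evm.TU.ctg42.32 were lower. The one 102196 bp from the TSS (1972154 to 1972409) held 1.35, 3.19 and 3.19 CPM in ArR_5h, against 7.09, 6.27 and 4.18 CPM in ArD_0h, a log2 difference of -1.22. The one at -37222 bp (2111827 to 2112126) held 1.91, 2.01 and 1.31 CPM in ArR_5h, against 3.90, 5.66 and 3.04 CPM in ArD_0h, a log2 difference of -1.24. The groups did not overlap at either. The one at -199212 bp (2273817 to 2274028) held 1.91, 2.24 and 3.37 CPM in ArR_5h, against 9.18, 4.43 and 2.28 CPM in ArD_0h, a log2 difference of -1.14. The groups overlapped there, and without ArD_0h replicate 1 the peak was not called (-0.48). The strongest peak of the gene, at -167628 bp, held 9.68, 12.6 and 15.7 CPM in ArR_5h, against 14.5, 11.2 and 20.0 CPM in ArD_0h, a log2 difference of -0.26, and was not called. The peaks at -167628 and -199212 bp are assigned to this gene by distance to the TSS only. The near end of the neighbouring gene evm.TU.ctg42.34 (2386255 to 2496009) is closer to both than the TSS of evm.TU.ctg42.32. Without ArR_5h replicate 1 only the peak at 6106 bp was called lower, while the log2 difference was -1.47 at 75710 bp, -0.88 at 102196 bp, -1.30 (peak at -37222 bp) and -0.96 (peak at -199212 bp), and without ArD_0h replicate 2 the peaks at 102196 bp (-1.11), -37222 bp (-0.91) and -199212 bp (-1.18) were not called. The peak at -37222 bp was not called either without ArR_5h replicate 2 (-1.35) or 3 (-1.10), nor that at -199212 bp without ArR_5h replicate 2 (-1.07). The call at -199212 bp was lost in each of the 5 other settings, with DESeq2 (-1.08), the authors' library totals (-0.96), the trend on level taken out (-0.89), no filter (-1.10) and the replicate block (-1.0). That at -37222 bp was lost with the library totals (-1.09), the trend taken out (-0.87) and the block (-1.24). The peak at -17325 bp, with 1.35, 2.60 and 3.0 CPM in ArR_5h, against 8.07, 3.21 and 3.04 CPM in ArD_0h, was not called (-1.09). Its groups touched without overlap, and without ArD_0h replicate 3 it was called lower (-1.28).

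The gene evm.TU.ctg308.1, on the plus strand of ctg308 from 10740 to 195266, held the strongest peak of the 5 genes, and 3 of its 4 lower peaks lay in a cluster that began with it. The study lists this gene as a candidate of the interval before the one in which it lists the other 4. The strongest peak of all members, 1205 bp wide and 33937 bp from the TSS (44677 to 45881), held 73.5, 80.3 and 100.5 CPM in ArR_5h, against 178, 176 and 158 CPM in ArD_0h, a log2 difference of -1.01 (standard error 0.227). The groups lay far apart, but the difference was so close to the limit of 1 that the peak was not called with DESeq2 (-0.98), the authors' library totals (-0.86) or no filter (-0.99). The peak at 35959 bp (46699 to 47106) held 12.9, 8.26 and 12.2 CPM in ArR_5h, against 15.4, 32.1 and 35.3 CPM in ArD_0h, a log2 difference of -1.31 (standard error 0.327). The peak at 40608 bp (51348 to 52216) held 16.2, 13.3 and 18.4 CPM in ArR_5h, against 19.2, 74.0 and 37.6 CPM in ArD_0h, a log2 difference of -1.45 (standard error 0.362). At these 2 peaks ArD_0h replicate 1 was the lowest of its group and only slightly above the ArR_5h libraries. The fourth peak of the cluster, at 42968 bp, held 3.42 to 8.25 CPM in ArR_5h and 7.34 to 12.5 CPM in ArD_0h, a log2 difference of -0.96 just short of the limit, and was called lower without ArD_0h replicate 2 (-1.08) or ArR_5h replicate 3 (-1.39) and with the trend on level taken out (-1.07). In front of the cluster, the levels at 26990 bp were 1.46, 0.944 and 0.562 CPM in ArR_5h, against 1.95, 4.28 and 2.28 CPM in ArD_0h. The groups did not overlap there, and with a log2 difference of -1.45 the peak was not called, but it was with DESeq2 (-1.44) and without ArD_0h replicate 1 (-1.68).

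Outside that cluster, evm.TU.ctg308.1 had 1 lower peak, 93360 bp inside the gene (104100 to 104774). It held 9.79, 11.6 and 13.9 CPM in ArR_5h, against 27.7, 26.5 and 25.7 CPM in ArD_0h, the closest agreement within the diapause libraries among the lower peaks of this gene, and a log2 difference of -1.19 (standard error 0.286). No member overlapped the TSS of this gene. The peak nearest to it, at 933 bp, held 2.59, 1.18 and 3.0 CPM in ArR_5h, against 6.68, 2.91 and 1.14 CPM in ArD_0h, a log2 difference of -0.72 (standard error 0.539) with overlapping groups. The 3 peaks upstream, from -5549 to -2510 bp, had log2 differences of -0.38 to 0.13 and were not called. Inside the gene, 4 further peaks assigned to evm.TU.ctg308.3 had log2 differences from -0.73 to 0.85 and were not called. Without ArD_0h replicate 2 the log2 difference at 40608 bp was -0.79 and not called, and at 33937 bp it lay at -0.99, -0.93, -0.91 and -0.97 without ArD_0h replicate 1, ArD_0h replicate 2, ArR_5h replicate 1 and ArR_5h replicate 2, none of these called.

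**Figure D3:**
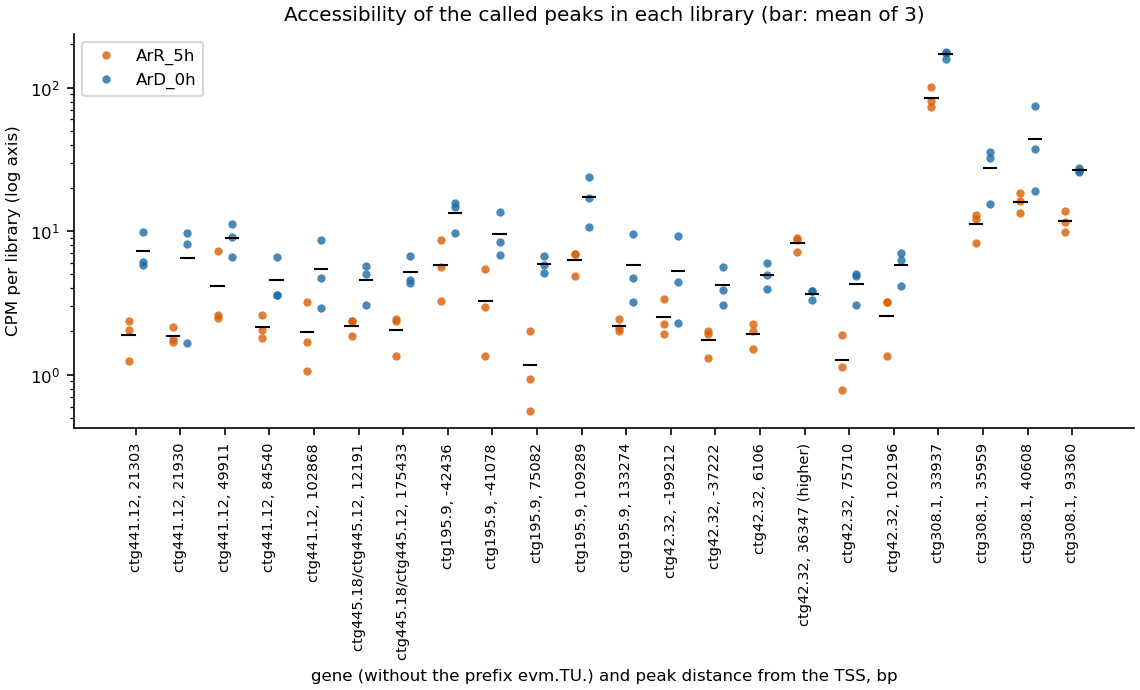
CPM of the 22 called peaks of the 5 genes in each library (log axis), with ArR_5h in orange to the left of ArD_0h in blue and the mean of 3 libraries as a bar. The lower peaks of evm.TU.ctg308.1 stand highest, and the 1 higher peak is that of evm.TU.ctg42.32 at 36347 bp.

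ArD_0h replicate 1, the library that stood apart, was the highest of its group at 13 of the 21 lower peaks and at 33 of all 52 members. The share over all tested peaks was not computed, so these counts cannot be read as particular to the members. Without that library, 16 of the 21 were still called lower and 2 other members were newly so, and the median log2 difference of the members was -0.77. The count moved most without ArR_5h replicate 1, when 9 of the 21 were still called lower and no other member was, and without ArD_0h replicate 2, when 12 of the 21 were and 1 other member was. Over all tested peaks, 9561 were lower without ArR_5h replicate 1 and 14855 without ArD_0h replicate 2, against 17091 with all libraries. Of the 21, 7 were called lower in all 11 alternative fits. They were the peak of evm.TU.ctg441.12 at 21303 bp, those of evm.TU.ctg195.9 at -41078, 75082 and 109289 bp, that of evm.TU.ctg42.32 at 6106 bp and those of evm.TU.ctg308.1 at 35959 and 93360 bp. No peak of evm.TU.ctg445.18_evm.TU.ctg445.12 was among them.

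**Figure D4:**
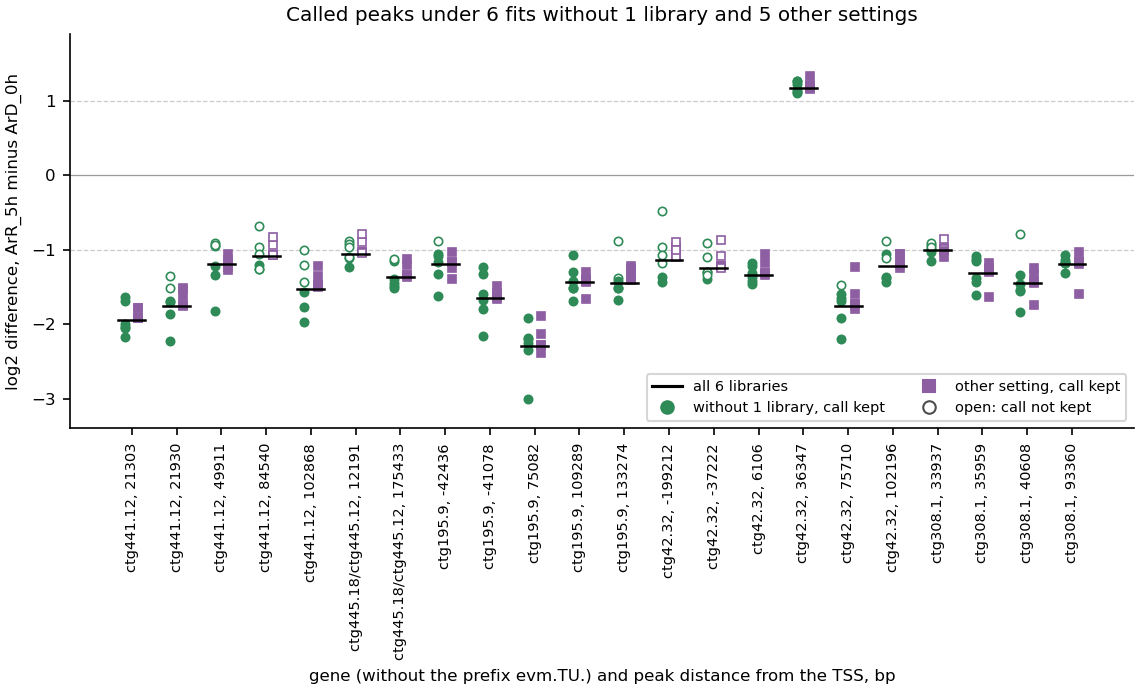
Log2 difference of the 22 called peaks with all 6 libraries (black bars), without each library in turn (circles) and under 5 other settings (squares), filled where the call was kept. The peak of evm.TU.ctg195.9 at 75082 bp is the lowest in the plot, and every value of each peak keeps its sign.

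The rest of the contigs on which the 5 genes lie was also measured. On ctg441, 12 of 68 other tested peaks were lower and 7 higher (median log2 difference -0.24), and on ctg42, 38 of 209 were lower and 25 higher (-0.29). On ctg195, 7 of 52 were lower and 11 higher (0.04), on ctg308, 9 of 93 were lower and 16 higher (0.29), and on ctg445, 3 of 19 were lower and 5 higher (0.36). Over the 5 contigs, 69 of these other peaks were lower and 64 higher.

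The 10 other candidate GPCR genes of the study held 151 tested peaks, of which 11 were lower and 28 higher, with a median log2 difference of 0.23. The lowest median of all 15 candidates, -1.33, belonged to evm.TU.ctg179.3, which is not among the 5 genes and of whose 3 tested peaks 2 were lower. The 5 medians were -1.32 (evm.TU.ctg195.9), -1.09 (evm.TU.ctg441.12), -1.07 (evm.TU.ctg42.32), -1.05 (evm.TU.ctg445.18_evm.TU.ctg445.12) and -0.74 (evm.TU.ctg308.1). Just outside them, evm.TU.ctg41.1 had a median of -0.74 with 1 of 10 tested peaks lower and 1 higher, and evm.TU.ctg25.48 one of -0.66 with 2 of 13 lower and 1 higher. The line between the 5 genes and the next candidates was therefore not sharp, and no test was made across it, since the genes had been sorted on these values. At the other end, evm.TU.ctg288.3 had 8 of 14 tested peaks higher and none lower (1.19). Frizzled-10 (evm.TU.ctg321.8), a receptor for Wnt proteins, had 4 of 13 higher and 2 lower (0.79).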

How the data were processed

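Counts per merged peak and library were deposited by the authors as whole numbers for ATAC-seq of 3 ArR_5h and 3 ArD_0h libraries. The paper describes trimming with skewer, mapping with BWA to *A. franciscana*, filtering of reads, removal of duplicates and peak calling with MACS2, and the labels name BWA and MACS2. A shift for the Tn5 offset and the counting tool are not given in the sources used here. RPM, as the authors deposited it, is the count with 1 added over a library total and served only to recover these totals. Distances to the TSS come from the table, and a distance of up to 3000 bp was read as near a TSS.

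All 112211 peaks that passed the filter of edgeR 4.0.16 (R 4.3.3, TMM, quasi-likelihood test, Benjamini-Hochberg adjustment) were fitted together, without a replicate block. A standard error was taken as the size of the log2 difference over the root of its F statistic. Alternatives were DESeq2 1.42.0, the library totals behind the RPM values, removal of the trend on level by loess (limma 3.58.1), no filter, the replicate block, no limit on the log2 difference, and leaving out each library. Sums and ranges were computed in Python 3.11.15. The procedure was tested on simulated data with the same dispersion at all peaks and no library that stood apart. That test therefore says nothing on the effect of ArD_0h replicate 1. The members, the lists and the rule for named peaks (every called peak, the peak nearest the TSS and the strongest peak of each gene) were chosen with earlier results of these data known. No genome sequence was used here, so no sequence is shown. Counting error was not separated from other variation.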

Additional observations from a re-analysis of the deposited data

How the results depend on the processing

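With DESeq2, scaling by the authors' library totals, the trend on level removed, no filter on low counts and no limit on the log2 difference, the count of lower peaks of the 5 genes stayed within 1.5 times of 21. The count of higher peaks, 1 in the report, was 2 with DESeq2, 2 with the library totals, 3 with the trend removed and 2 without the limit. Without each library in turn, 9 to 21 peaks of the 5 genes were lower (9 without ArR_5h replicate 1, 13 without ArD_0h replicate 2) and 1 to 3 higher (3 without ArD_0h replicate 1). Over all tested peaks, 9561 to 17601 were then lower and 11373 to 19301 higher. The library totals moved the median over all peaks by 0.16 and made 64.0% of the called peaks higher, against 48.8% with TMM. The replicate numbers gave no sign of pairing, since the deviations of same-numbered libraries from their group means correlated at -0.207, 0.00393 and -0.145. With so few libraries in a group these correlations constrain one another, so they cannot settle whether the libraries were paired. With the replicate block, 17 peaks of the 5 genes were lower and 1 higher. Among the named peaks, direction changed only at 2 that were not called: that of evm.TU.ctg42.32 at -167628 bp (-0.44 to 0.0075 without each library in turn, above 0 without ArD_0h replicate 3) and that of evm.TU.ctg308.1 at 933 bp (-1.08 to 0.087, above 0 without ArD_0h replicate 1). The cause was not tested. An effect of depth on these calls was not tested.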

Other observations

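The genes beside the 5 genes were counted by the peaks assigned to them. A neighbour is here the nearest gene with tested peaks, at a gap of up to 311649 bp. Some of these peaks lie inside the 5 genes, namely 7 of evm.TU.ctg441.11 (1 lower), 4 of evm.TU.ctg308.3 (none lower) and 1 lower peak of evm.TU.ctg195.12. The neighbour of the RYamide receptor gene on its far side, evm.TU.ctg441.11, had 3 of 15 tested peaks lower and 1 higher, and the neighbour upstream, evm.TU.ctg441.17, had 1 of 9 lower. Both neighbours of evm.TU.ctg42.32 had lower peaks and no higher ones, evm.TU.ctg42.34 with 9 of 21 lower (median log2 difference -0.89) and evm.TU.ctg42.30 with 2 of 3 lower. The neighbours of the other 3 genes had fewer lower than higher peaks or none called, except evm.TU.ctg195.8_evm.TU.ctg195.7 with 2 of 8 lower and 1 higher.

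The pattern over the 6 libraries was also compared between genes, as the root mean square difference of their mean log2 CPM over tested peaks, each centred on its own mean. Among 7476 genes, evm.TU.ctg511.5 was nearest to the RYamide receptor gene (0.0321), with 3 of 12 tested peaks lower. Next was evm.TU.ctg455.1_evm.TU.ctg455.2 (0.0376), with 9 of 28 lower. The 5 genes lay 0.134 to 0.320 from one another, so that each had other genes closer to it than any of the remaining 4. The nearest gene was evm.TU.ctg1.34 for evm.TU.ctg445.18_evm.TU.ctg445.12 (0.0403), evm.TU.ctg757.4_evm.TU.ctg757.3 for evm.TU.ctg195.9 (0.0524), evm.TU.ctg300.11 for evm.TU.ctg42.32 (0.0404) and evm.TU.ctg385.31 for evm.TU.ctg308.1 (0.0295). Nothing on function follows from this likeness.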
